A study of Mus musculus with 131 samples.

Results

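Whole-genome bisulfite sequencing (WGBS) of mouse hepatocytes gave the methylated fraction of CpG readings in windows (tiles) of 200 bp. A total of 8049849 autosomal tiles had a value in each of the 3 libraries, and in 20084 of them (0.249%) the DKO library was at least 35 percentage points above both the adult WT and the newborn WT library. These 20084 tiles, called DKO-only methylated tiles here, were chosen by these measured values, so that their WGBS levels are given as a description with no test. They are tiles of low or intermediate methylation in hepatocytes of normal liver at both ages that were more methylated in adult hepatocytes that had lost Tet2 and Tet3. The same tiles were then followed in measurements that the choice did not use: reduced representation bisulfite sequencing (RRBS), peaks of histone marks, open chromatin, HNF6 binding and 5-hydroxymethylcytosine (5hmC), and RNA-Seq.

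TET enzymes oxidise 5-methylcytosine to 5hmC and further products, which are lost by repair or through replication, so that methylation is removed. DNMT3A and DNMT3B add methyl groups to unmethylated CpG sites, and DNMT1 copies existing methylation at replication. Active enhancers in differentiated cells are usually undermethylated and carry H3K4me1 and H3K27ac, whereas CpG islands at promoters are kept unmethylated in almost all tissues.

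All mice were C57Bl. DKO mice carried floxed Tet2 and Tet3 (Tet2F/Tet3F) and were injected with AAV8, a liver-tropic virus, with Cre under the hepatocyte-specific Tbg promoter, at an age of either 1 day or 3 weeks, and were analysed at 15 weeks. Controls were WT mice given the same virus at the same ages and analysed at 15 weeks, so that both arms carried the virus and Cre and differed in the floxed alleles. WT mice without injection were 3 or 15 weeks old. The WGBS libraries were 1 of DKO mice injected at 1 day, 1 of 15 week WT and 1 labelled newborn with an age of 1 week. By RRBS, 2 DKO mice and 3 controls were used at each injection time, and by RNA-Seq 3 DKO mice and 3 controls for injection at 1 day and 2 DKO mice and 3 controls for injection at 3 weeks. The series lists more, with 5 DKO and 4 control RRBS samples at each injection time and 3 RNA-Seq DKO samples for injection at 3 weeks. Only columns of values that could be linked to a label were used, so that the numbers of mice in the tests are smaller than those of the study. RRBS was also used for hepatocytes of 2 mice without the insulin receptor (InsR KO), floxed for its gene, given the same Cre virus just after birth and analysed as adults. Other RRBS samples were 2 cultures labelled as hepatocytes with an age of 1 week, which by the methods were grown for weeks from liver cells of newborn mice that had not been sorted, 1 fat sample of 25 weeks and 1 neutrophil sample of 36 weeks. By RRBS the series lists 3 InsR KO samples, 8 cultures and 4 WT samples of 3 weeks, of which 2 each were used. Histone marks came from 1 DKO (injected at 1 day) and 1 WT hepatocyte library each, ATAC-Seq and HNF6 ChIP-Seq from 2 WT and 2 DKO libraries each, and 5hmC from 1 hepatocyte library of WT mice of 20 days. The ATAC-Seq and HNF6 libraries carry the tissue label liver, while the methods give hepatocytes for ATAC-Seq, from adult mice of 15 weeks with injection of the DKO mice at 1 day. Whether the WGBS DKO library came from a mouse that was also read by RRBS is not given in the sources used here. The DKO mice injected at 3 weeks were other animals than those of the WGBS library.

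The WGBS and RRBS tables hold fractions without coverage, so that the depth behind each value is unknown and no interval is given for them. Peak libraries had 13437081 to 90249422 tags. Expression was given as FPKM (fragments normalised to transcript length and library size). Full-length FPKM do not show whether exons were deleted: Tet2 was at 2.82 to 4.08 FPKM in the DKO mice injected at 1 day and at 0.890 to 2.13 in their controls (log2 difference of 0.79 ± 0.20 SE, adjusted p = 0.0173, limma), and Tet3 at 1.74 to 2.78 and 1.68 to 2.55. Tet1 was at no more than 0.00925 FPKM in these groups. Hepatocyte markers summed to 12530 to 15490 FPKM in these DKO mice and to 13330 to 17630 in the controls, with 2 of 10 markers (Alb and Serpina1a) listed at 0 in each of these mice. The 6 leukocyte markers summed to at most 0.376 FPKM. Among the mice injected at 3 weeks, 1 control (replicate 3) had Xist at 88.1 FPKM and the 4 Y-linked transcripts at 0, as in female mice. The 3 week WT mice had Xist at 48.0 to 77.1 FPKM and Y-linked transcripts at 0 to 0.0741, and all other mice of 15 weeks had Y-linked transcripts at 30.8 to 42.1 FPKM.

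Several of these tiles are printed to show what kind of sequence they are, namely the 5 with the largest excess of the DKO library that also had an RRBS value in all 10 injected mice, and 1 tile each from the longest run and from a run at Gt(ROSA)26Sor. The sequences are the plus strand of build NCBIM37 (mm9) from 5′ to 3′, and capitals mark each complete CpG, the kind of position at which methylation was read. The Ror1 tile (chr4:99994401-99994600) lies in an intron and has 2 CpG, of which 1 begins at its last base. The Tmem104 tile (chr11:115105201-115105400) lies in a coding exon and has 6 CpG. The first Lrp1 tile (chr10:127008401-127008600) spans part of a coding exon and has 8 CpG, of which 1 begins at its last base, and the Dnajc16 tile (chr4:141325601-141325800) reaches into a coding exon and has 1 CpG. The Rab4a tile (chr8:126332601-126332800) lies in an intron and has 3 CpG. The Lrp1 run tile (chr10:127036601-127036800) and the Gt(ROSA)26Sor tile (chr6:113025801-113026000) lie in introns and have 5 and 4 CpG.
Ror1 tile: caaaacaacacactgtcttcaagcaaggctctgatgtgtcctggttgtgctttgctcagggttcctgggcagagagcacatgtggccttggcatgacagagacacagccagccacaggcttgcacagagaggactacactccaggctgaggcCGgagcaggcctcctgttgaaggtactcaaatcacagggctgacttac
Tmem104 tile: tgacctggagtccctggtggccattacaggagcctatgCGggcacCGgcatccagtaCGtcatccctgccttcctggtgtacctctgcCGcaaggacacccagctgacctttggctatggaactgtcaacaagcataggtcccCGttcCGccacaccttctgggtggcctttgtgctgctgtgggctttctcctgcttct
Lrp1 exon tile: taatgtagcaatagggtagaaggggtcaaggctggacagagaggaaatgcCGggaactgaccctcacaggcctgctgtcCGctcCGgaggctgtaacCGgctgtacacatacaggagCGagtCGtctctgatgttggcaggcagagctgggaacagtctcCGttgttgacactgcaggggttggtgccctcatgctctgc
Dnajc16 tile: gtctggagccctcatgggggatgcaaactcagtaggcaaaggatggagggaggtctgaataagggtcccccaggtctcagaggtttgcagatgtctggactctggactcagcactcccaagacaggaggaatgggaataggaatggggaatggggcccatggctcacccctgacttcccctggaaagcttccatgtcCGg
Rab4a tile: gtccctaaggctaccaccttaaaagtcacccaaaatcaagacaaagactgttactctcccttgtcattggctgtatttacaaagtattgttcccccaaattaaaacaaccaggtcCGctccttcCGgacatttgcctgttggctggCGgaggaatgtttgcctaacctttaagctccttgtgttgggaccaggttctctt
Lrp1 run tile: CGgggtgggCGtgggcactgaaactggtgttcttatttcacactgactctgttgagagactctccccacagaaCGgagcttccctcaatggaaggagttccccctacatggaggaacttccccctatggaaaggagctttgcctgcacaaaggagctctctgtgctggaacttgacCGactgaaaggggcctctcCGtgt
Gt(ROSA)26Sor tile: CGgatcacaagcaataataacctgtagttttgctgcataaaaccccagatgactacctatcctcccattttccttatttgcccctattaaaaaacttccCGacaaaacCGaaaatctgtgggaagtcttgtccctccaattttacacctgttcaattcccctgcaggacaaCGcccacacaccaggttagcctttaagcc

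In the WGBS libraries the Ror1 tile was methylated at 87.0% in DKO, 0% in adult WT and 4.35% in newborn. Ror1 encodes a receptor-like kinase of the Wnt5a pathway. By RRBS it read 45.5% and 57.7% in the DKO mice injected at 1 day against 0%, 1.89% and 2.50% in their controls, and 32.4% and 18.2% after injection at 3 weeks against 0% in all 3 controls. The Tmem104 tile (WGBS 82.0%, 3.39% and 9.49%) read 81.7% and 58.3% after injection at 1 day and 47.3% and 72.5% after injection at 3 weeks, with 0% in all 6 controls. The Lrp1 exon tile (WGBS 76.4%, 0% and 5.77%) was lower in the RRBS mice, with 36.8% and 41.2% at 1 day against 0% in each control, and 15.4% and 7.41% at 3 weeks against 0%, 0% and 5.26%. At the Dnajc16 tile (WGBS 96.6%, 27.3% and 15.0%) the DKO mice injected at 1 day read 83.3% and 87.5% against 48.8%, 30.3% and 23.5%, and those injected at 3 weeks 31.3% and 84.6% against 6.67%, 0% and 10.0%. At the Rab4a tile (WGBS 73.2%, 0% and 4.05%) they read 89.1% and 69.8% against 0%, 8.00% and 0%, and 36.2% and 26.8% against 15.6%, 0% and 0%. At each of the 5 tiles the DKO mice were above all controls of the same injection time, and the DKO level after injection at 3 weeks was lower than at 1 day in both mice at the Ror1, Lrp1 and Rab4a tiles but not at the other 2.

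The mean level over all 20084 tiles was 68.9% in the DKO library, 13.2% in adult WT and 22.7% in newborn WT, against means of 76.4%, 75.8% and 78.7% over all tiles with 3 values. In DKO the tiles ranged from 45.2% at the 5th to 91.2% at the 95th percentile, and 9799 (48.8%) reached 70% while 1331 (6.63%) reached 90%. Newborn was above adult WT in 15282 (76.1%) of them, with a median difference of 7.89 points. Both WT libraries were under 20% in 8600 (42.8%). At the limit of the rule, the 5 members just inside were 35 points above the higher WT library, at 40% to 75.0% in DKO, while 4 of the 5 tiles just outside had 43.3% in DKO and 8.33% in newborn. The mirrored pattern, DKO at least 35 points below both WT libraries, held in 4886 tiles, so that there were 4.11 tiles with the excess in DKO for each with the deficit. With the same limit, adult WT was above both other libraries in 1567 tiles and newborn in 3859. For comparison, in 92706 tiles both newborn and DKO were at least 35 points above adult WT, so that methylation was lower after birth in normal liver and not without Tet2 and Tet3 (called postnatal tiles here). Of the DKO-only methylated tiles, 938 met this rule too. These and the 193072 tiles that were under 20% in all 3 libraries (constantly low tiles) are the 2 sets with which the DKO-only methylated tiles are compared.

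The tiles lay mostly in introns of genes and contained few CpG sites. Gene bodies held 69.8% of them, compared with 44.0% of all tiles, 62.2% of postnatal and 39.8% of constantly low tiles. Promoters, from 1000 bp upstream to 100 bp downstream of a start, held 1019 (5.07%), compared with 3.48% of all tiles and 35.5% of the constantly low ones. A further 25.1% lay between genes. Introns alone held 63.0% and exons 9.31%. The median distance to the nearest transcription start was 10368 bp, against 25199 bp for all tiles and 960 bp for constantly low ones. The mean number of CpG was 2.10 per tile (2.47 in all tiles, 8.51 in constantly low ones), and only 90 tiles (0.448%) had 10 or more. Among the 238594 tiles under 20% in both WT libraries, the share that belonged to the class went down with CpG number, from 9.21% with 0 or 1 CpG through 4.6% with 3 and 1.31% with 6 or 7 to 0.018% with 15 or more. Few CpG per tile also mean fewer readings behind a value, and the part of that in these shares was not tested. By chromosome, the tiles made up 2.12 (chromosome 13) to 3.90 (chromosome 19) of every 1000 measured tiles, with 3.49 on chromosome 11.

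Letters that liver transcription factors bind were searched on both strands of each tile, in its 200 bases alone. The letters TGTTTAC, bound by FOXA pioneer factors, were in 6.57% of the tiles, in 3.81% of postnatal, 3.64% of constantly low and 2.97% of all tiles. The variant TGTTTGC was in 8.60%, 5.12%, 5.00% and 4.21%. The letters CAAAGTCCA, a match to the HNF4A site, were in 1.09% against 0.259% of all tiles, and the nuclear receptor repeat DR1 in 43 tiles (0.214%) against 0.0376%. C/EBP letters (TTGCNNAA) were in 13.1% and HNF6 letters (ATTGAT) in 12.0%, against 9.07% and 9.33% of all tiles. These 2 shares were close to those of the postnatal tiles (12.3% and 11.9%). The core letters of the site of the insulator protein CTCF were in 0.642% compared with 3.33% of constantly low tiles. AP-1 letters (TGANTCA) were in 7.59%, E-box letters (CACGTG) in 3.15%, ETS letters (CCGGAAGT) in 0.154% and NFI palindrome letters in 0.0697%, against 5.98%, 2.89%, 0.184% and 0.0124% of all tiles. The Rab4a tile holds both TTGCNNAA and TGTTTGC letters, and the other 6 printed tiles hold none of the searched ones. A match describes letters and not binding.

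Most of the DKO-only methylated tiles had no adjacent tile of the class, with some clustering. Adjacent to another such tile lay 2692 (13.4%), against 0.391% of all tiles, and 10830 (53.9%) had another within 10 kb. Adjacent to a postnatal tile lay 16.9%, compared with 1.64% of all tiles. Around the tiles, adult WT rose from 13.2% in the tile to 48.0% in the tile before it and 70.3% at 2 kb, while DKO went from 68.9% over 70.9% to 77.2%, and newborn from 22.7% over 59.1% to 75.7%. The plot of methylation by distance shows a narrow dip in both WT libraries and a shallow one in DKO. The centre is fixed by the rule, which did not use the flanks.

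**Figure D1:**
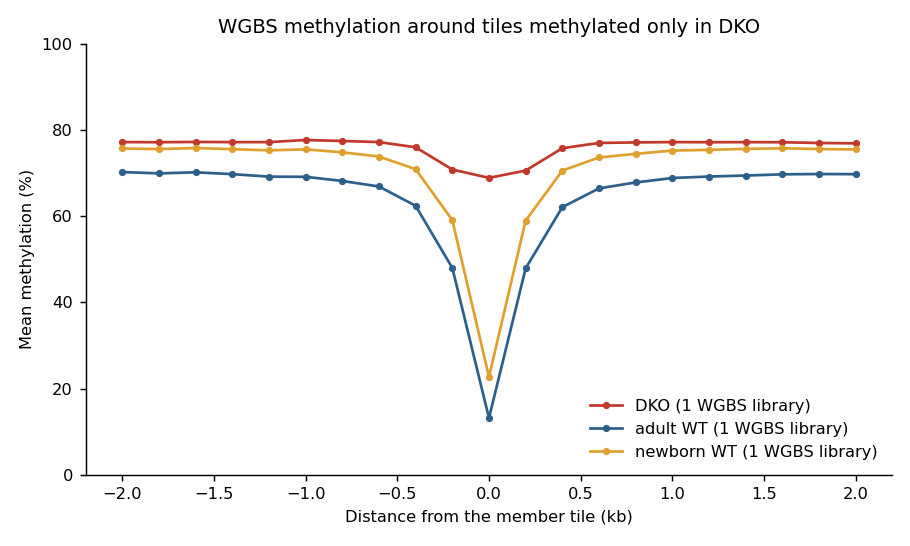
Mean methylation (percent) of 200 bp tiles against distance (kb) from the DKO-only methylated tile (member tile) at 0, with 1 line for each of the DKO, adult WT and newborn WT WGBS libraries. At 200 bp before the tile the means are 70.9%, 48.0% and 59.1%, and at the tile itself 68.9%, 13.2% and 22.7%.

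The 20084 tiles formed 18670 runs of adjacent tiles, of which 17392 were single tiles, 1162 had 2, 99 had 3, 15 had 4, 1 had 5 and 1 had 6. The longest (chr10:127036601-127037800, 1200 bp) lies in Lrp1, which encodes an endocytic receptor for lipoproteins and protease complexes, and had 67.3% in DKO, 5.32% in adult WT and 14.4% in newborn. The run of 5 tiles lies in an intron of Onecut2, a liver transcription factor of the HNF6 family, with 53.9%, 3.63% and 8.82%. Of the runs of 4 tiles, the 3 with the largest mean excess of DKO lay in an intron of Gt(ROSA)26Sor (84.6%, 12.5% and 1.71%), between genes at chr6:31040401-31041200 (80.1%, 3.29% and 23.4%) and in Samm50 (chr15:84026801-84027600; 70.1%, 4.81% and 14%), which encodes a subunit of the mitochondrial outer membrane sorting complex.

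At Gt(ROSA)26Sor, a broadly expressed non-coding locus that is widely used for targeted insertion of transgenes, 8 of 37 measured tiles were DKO-only methylated. The edge was sharp: the tile 1.43 kb downstream of the start read 89.1% in DKO, 1.5% in adult WT and 1.60% in newborn, and the next tile towards the start read 9.88%, 1.47% and 7.07%. The 5 tiles from 1.43 to 2.43 kb were at 76.7% to 94.1% in DKO and, with the exception of 44.4% in 1 tile of adult WT, at 0% to 3.90% in the WT libraries. The other 3 lay at 4.43 to 4.83 kb. No allele at this locus is named in the labels or methods of the study. None of these 8 tiles had an RRBS value in all 10 injected mice.

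At Alb, which encodes serum albumin, 15 of 68 measured tiles (22.1%) belonged to the class. They had means of 69.4% in DKO, 9.33% in adult WT and 21.6% in newborn, and all lay downstream of 4.99 kb from the start, up to 16.0 kb. The other 53 tiles of Alb were at 34.5%, 7.30% and 20.5%. Trf, which encodes the iron carrier transferrin, had 19 of 120 tiles (15.8%), with means of 73.8%, 11.6% and 27.7%. In Lrp1 the 24 tiles of 387 had means of 71.9%, 8.79% and 21.1%, while the other 363 were at 80.2%, 69.0% and 79.7%. The plot of tiles along Alb, Trf and Gt(ROSA)26Sor shows that the tiles at the start of Gt(ROSA)26Sor and Alb were low in DKO too.

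**Figure D2:**
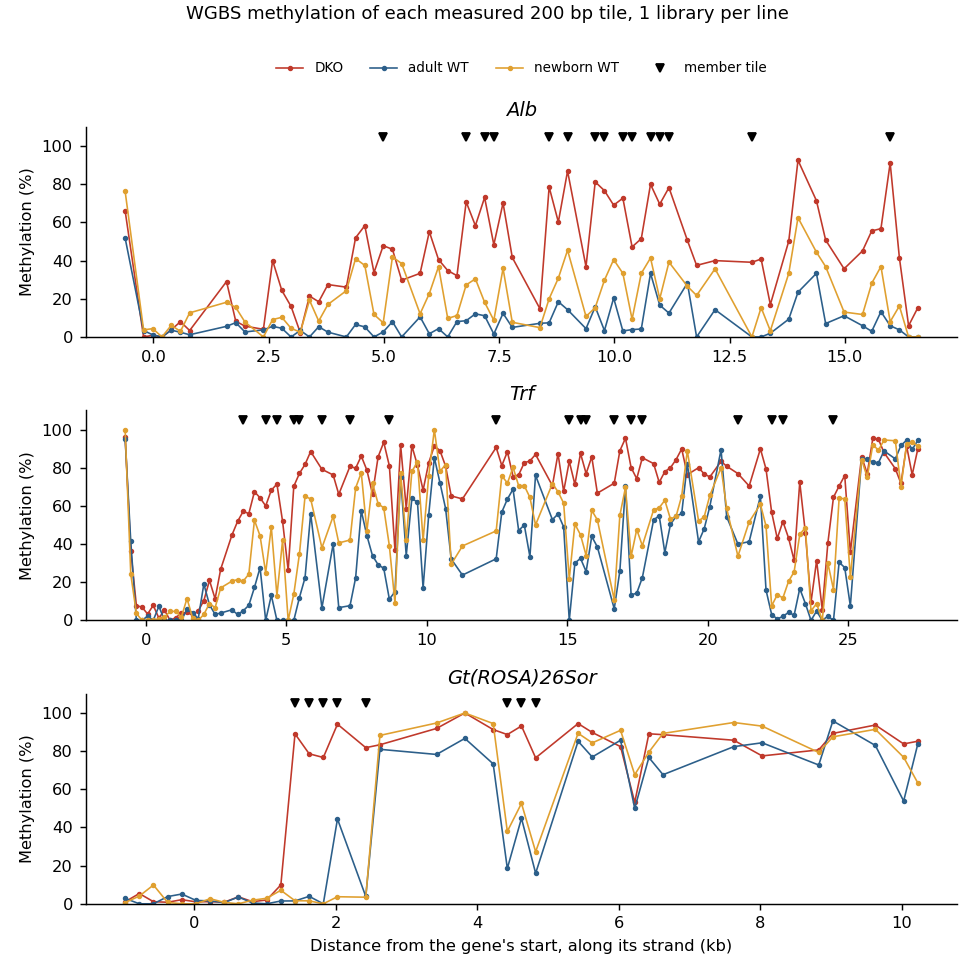
Methylation (percent) of each measured 200 bp tile along Alb, Trf and Gt(ROSA)26Sor against distance (kb) from the start of the gene along its strand, with 1 line for each of the DKO, adult WT and newborn WT WGBS libraries and a triangle above each DKO-only methylated tile (member tile). At Gt(ROSA)26Sor DKO goes from 9.88% at 1.23 kb to 89.1% at 1.43 kb, and at Alb the marked tiles lie between 4.99 and 16.0 kb.

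RRBS, which reads CpG-rich restriction fragments in 100 bp tiles, covered 1567 (7.80%) of the DKO-only methylated tiles with 2052 RRBS tiles. After injection at 1 day, the mean over 964 RRBS tiles was 59.6% and 61.7% in the DKO mice and 11.0%, 12.1% and 11.6% in the controls. After injection at 3 weeks, the mean over 864 tiles was 39.4% and 40.3% in the DKO mice and 13.5%, 13.0% and 12.8% in the controls. No DKO mouse overlapped with a control, and the mice injected at 3 weeks lay between the controls and the DKO mice injected at 1 day. The differences were 49.1 and 26.8 points, the latter 26.7 without control replicate 3, the mouse with Xist. By two-sided exact permutation test over mice each had p = 0.1, the smallest that 2 against 3 mice allow (0.15 after Benjamini-Hochberg adjustment over 6 comparisons). With both injection times in 1 test, labels permuted within time, the difference over 802 tiles was 37.8 points (exact p = 0.01, the smallest of 100 splits). Over the same tiles the effect was 48.8 points at 1 day and 26.7 at 3 weeks, and this difference of 22.1 points had an exact p of 0.0167 when injection time was permuted, the smallest of 120 splits. The postnatal tiles also had a smaller effect after the later injection, with 58.3 points at 1 day and 35.6 at 3 weeks. The rule of the DKO-only methylated tiles used a DKO library injected at 1 day, and the part of this in the difference was not tested.

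In 3 week WT mice, the age at which the later injection was given, the tiles were at 17.9% and 18.9% over 949 RRBS tiles, and in the DKO mice injected at that age and analysed at 15 weeks at 40% and 40.9%. The difference was 22.0 points (exact p = 0.333, the smallest that 2 against 2 mice allow). By RNA-Seq the 3 week WT mice with the same animal numbers had Xist and almost no Y-linked transcripts, whereas the DKO mice injected at 3 weeks had Y-linked transcripts at 32.7 to 38.8 FPKM, so that sex, age and genotype cannot be told apart here. The other comparisons with 3 week WT use the same mice. Both DKO mice were above both 3 week mice in 626 of the 949 tiles (66.0%), against 16.2% of all RRBS tiles. The controls injected at 3 weeks were at 13.3%, 12.7% and 12.8% over 850 tiles and the 3 week WT mice at 17.6% and 17.9%, a difference of 4.79 points (exact p = 0.1, the smallest possible). The postnatal tiles were at 51.8% and 53.7% in 3 week WT and at 55.5% and 55.4% in the DKO mice injected at 3 weeks, a difference of 2.69 points. The 2 sets were chosen by unlike levels in the newborn WGBS library (means of 22.7% and 74.8%). Part of this contrast between young WT and DKO was therefore set by the rules. Both sets were read in the same mice. The constantly low tiles differed by 0.339 points and all RRBS tiles by 1.22 points in the same comparison.

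DKO was higher in most of the tiles, by amounts that varied. After injection at 1 day every DKO mouse was above every control in 889 of 964 tiles (92.2%, against 12.6% of all RRBS tiles), and after injection at 3 weeks in 632 of 864 (73.1%, against 9.91%). Over the 802 tiles read in all mice, the median difference was 49.6 points at 1 day, from 14.1 at the 5th to 80.6 at the 95th percentile, and 23.8 points at 3 weeks, from 0 to 60.7. A difference of at least 35 points, the size that the WGBS rule asked for, was found in 618 tiles (77.1%) at 1 day and in 265 (33.0%) at 3 weeks, compared with 2.10% and 1.08% of all tiles. Of the 618, 132 had at 3 weeks at most 25% of their 1 day difference. The level of a tile in the WGBS DKO library and its mean in the DKO mice injected at 1 day had a Pearson r of 0.625 across 964 RRBS tiles, which are not independent, since a 200 bp tile can hold 2 of them and all come from the same mice.

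The fit by limma over all 257117 RRBS tiles with a value in every hepatocyte mouse held 506 tiles of the class. After injection at 1 day 369 of them (72.9%) were higher in DKO and 0 lower at an adjusted p under 0.05, whereas 2.45% of all tiles were higher. After injection at 3 weeks 114 were higher and 0 lower, with 0.555% of all tiles higher. The difference between injection times itself passed the threshold in 63 tiles, all with the larger effect at 1 day (0.332% of all tiles). Against 3 week WT, 48 tiles were higher in the DKO mice injected at 3 weeks and 0 lower (0.125% of all tiles higher).

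The same tiles were read in the cultures of unsorted liver cells and in InsR KO hepatocytes. The cultures were at 35.1% and 32.9% over 619 tiles and 3 week WT mice at 18.4% and 18.8%, a difference of 15.4 points (exact p = 0.333, the smallest possible). By limma 76 of the 506 tiles were higher and 3 lower in culture (0.483% of all tiles higher). InsR KO mice were at 18.7% and 21.3% over 621 tiles against 11.5%, 11.9% and 11.9% in the controls injected at 1 day, a difference of 8.25 points (exact p = 0.1, the smallest possible), and 16 tiles were higher and 0 lower (0.373% of all tiles higher). Neither difference was particular to these tiles, since the postnatal tiles differed by 18.4 points in culture and by 22.5 points in InsR KO. The InsR KO comparison uses the same controls as that of the DKO mice. Over the 490 tiles with a value in every sample, the fat sample was at 49.0% and the neutrophil sample at 65.1%, both nearer to the DKO mice injected at 1 day (61.2% and 62.3%) than to their controls (11.5% to 12.3%), with 1 sample of each tissue and no test. Over all RRBS tiles with a value in every sample, fat was at 49.5% and neutrophil at 53.8%, and over postnatal tiles at 56.4% and 76.2%. The rule chose tiles that were low or intermediate in WT hepatocytes, so that higher levels in other tissues are not particular to these tiles.

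**Figure D3:**
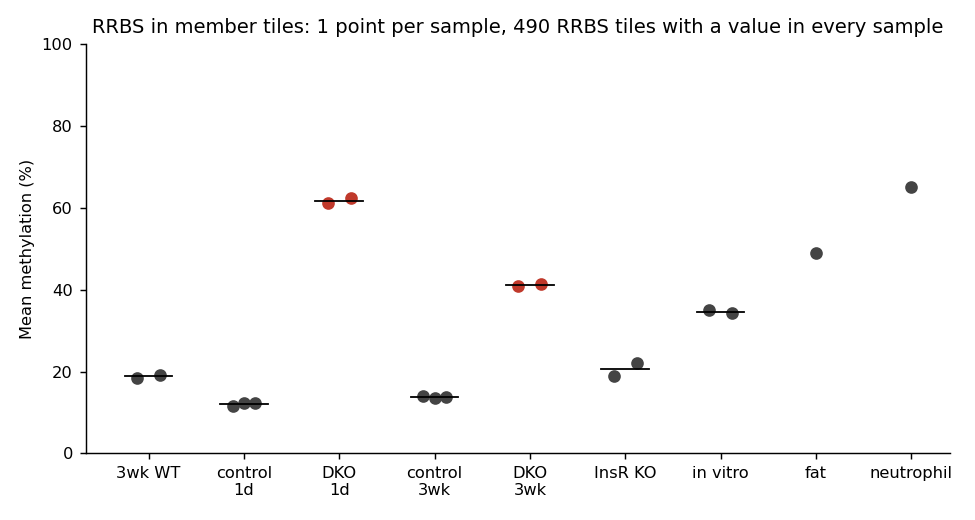
Mean RRBS methylation (percent) of the DKO-only methylated tiles (member tiles) in each sample, over the 490 RRBS tiles with a value in every sample; each point is 1 mouse, culture or tissue sample, black lines are group means and DKO mice are in red. The 2 DKO mice injected at 1 day are at 61.2% and 62.3%, those injected at 3 weeks at 40.8% and 41.4%, and the 6 controls between 11.5% and 14%.

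Most of the tiles lay in a region of H3K4me1 in adult WT hepatocytes, as in DKO. H3K4me1 regions held 68.6% of the tiles in WT (95% Wilson interval 67.9% to 69.2%) and 65.4% in DKO (64.7% to 66.0%), against 7.65% and 7.78% of all tiles. H3K27ac regions held 39.2% in WT (38.5% to 39.9%) and 38.8% in DKO (38.1% to 39.5%), against 4.43% and 4.86% of all tiles. These intervals cover counting error over tiles only, and 1 library per genotype leaves no replicate check of either difference. Of postnatal tiles, H3K4me1 regions held 68.2% in WT and 63.1% in DKO, and H3K27ac regions 42.9% and 39.5%. In WT, 7473 of the DKO-only methylated tiles (37.2%) lay in both marks, 6300 (31.4%) in H3K4me1 without H3K27ac, 395 (1.97%) in H3K27ac alone and 5916 (29.5%) in neither. Tiles in H3K27ac in WT only were 10.4% and in DKO only 10.0%, while 28.8% were in both. Among postnatal tiles these shares were 10.9%, 7.48% and 32%. For H3K4me1, 10.5% were in WT only and 7.26% in DKO only. The tiles in both marks had lower mean methylation in all 3 WGBS libraries (66.3% in DKO, 8.40% in adult WT, 20.6% in newborn) than those in neither (73.1%, 21.2% and 26.9%), and more CpG (2.43 against 1.71 per tile).

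Peaks of open chromatin and of HNF6 were on a minority of the tiles. ATAC-Seq peaks of WT liver held 8.85% and 10.2% of them and those of DKO liver 6.24% and 9.27%. The groups overlapped, and the difference of 1.77 points had an exact p of 0.667, where 2 against 2 libraries cannot go below 0.333. Relative to the share of all tiles in the same library, the tiles were 10.1 and 9.84 times as frequent in WT peaks and 6.24 and 8.00 times in DKO peaks, with no overlap (exact p = 0.333). This was not particular to these tiles, since postnatal tiles were at 7.68 and 8.62 times in WT and 4.86 and 5.32 in DKO. HNF6, a transcription factor of hepatocytes and bile ducts, had a peak on 1.33% and 2.67% of the DKO-only methylated tiles in WT and on 2.02% and 5.73% in DKO (difference of -1.87 points, exact p = 0.667). The HNF6 libraries differed in the number of peaks, with 4387 and 9355 in WT and 9305 and 34665 in DKO, and relative to all tiles the frequency was 15.8 and 16.2 times in WT and 11.3 and 8.52 times in DKO (exact p = 0.333). At postnatal tiles it was 17.6 and 15.2 times in WT and 9.49 and 7.51 times in DKO. A 5hmC peak of 20 day WT hepatocytes lay on 16.3% of the DKO-only methylated tiles, compared with 21.6% of postnatal, 6.84% of constantly low and 9.56% of all tiles.

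**Figure D4:**
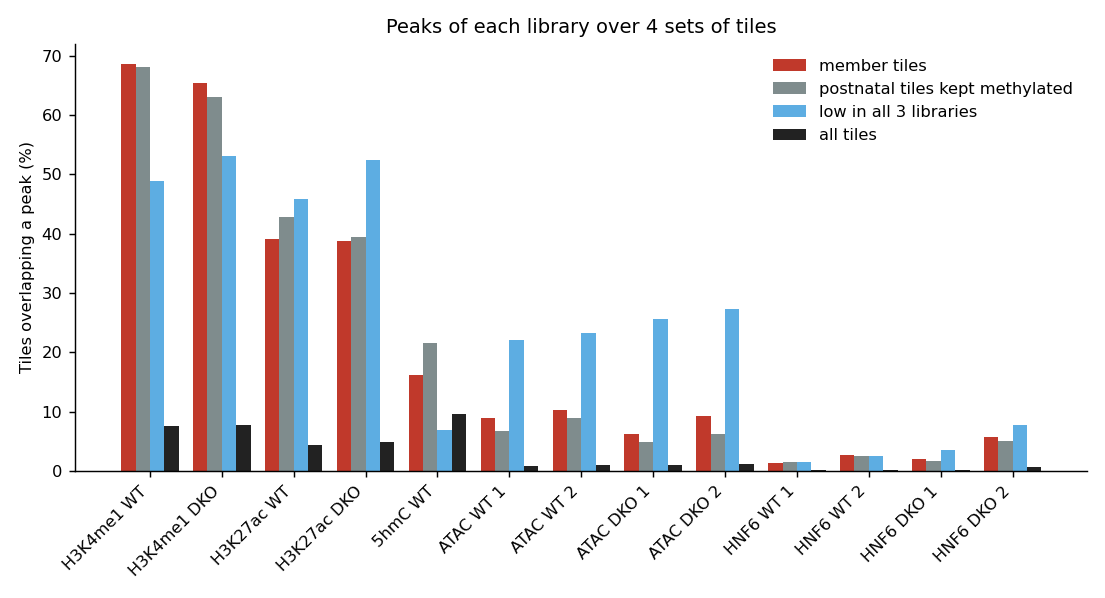
Share (percent) of DKO-only methylated tiles (member tiles), postnatal tiles, constantly low tiles and all tiles that overlap a peak by at least 1 bp, with 1 group of bars for each library of H3K4me1, H3K27ac, 5hmC, ATAC-Seq and HNF6. For DKO-only methylated tiles H3K4me1 holds 68.6% in WT and 65.4% in DKO and H3K27ac 39.2% and 38.8%, whereas no ATAC-Seq library exceeds 10.2%.

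The tiles were spread over many genes, and the genes with most of them were long. Counted from 1 kb upstream of the start to 1 kb beyond the end, 6473 of 34653 annotated autosomal genes (18.7%) held at least 1 tile, 3353 of them exactly 1, 838 at least 5 and 206 at least 10. The most were in Gm20388 (115 of 19517 measured tiles) and Fgfr2 (44 of 11503), 2 gene models of several Mb that span other genes. Zmiz1, which encodes a co-regulator of nuclear receptors, held 29 of 884, Fndc3b 27 of 1263, Ptprg 26, Msi2 25, Lrp1 24, Prkag2, a regulatory subunit of the energy sensor AMPK, 24, and Mob3b and Rere 23 each. These genes also held postnatal tiles, with 96 in Zmiz1, 77 in Ptprg, 57 in Prkag2, 53 in Mob3b and 38 in Rere. Lrp1 held 36 postnatal tiles, Msi2 23 and Fndc3b 22. By share of measured tiles Alb, Gt(ROSA)26Sor and Trf came first, then Rabggtb (5 of 35), Midn (7 of 60), D830014E11Rik (5 of 44), 1110002J07Rik and Ttr (5 of 45 each) and Gpd1 (5 of 46), of which Ttr encodes the thyroid hormone carrier transthyretin and Gpd1 the cytosolic glycerol-3-phosphate dehydrogenase. Among genes of the expression table, the median FPKM in controls injected at 1 day was 0.0319 without a tile, 4.30 with at least 1, 6.96 with at least 5 and 19.8 in the 50 genes with the highest share, of which 22.0% were at 100 FPKM or more, against 1.46% of genes without a tile.

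In the RRBS mice the tiles inside these genes were also higher in DKO. The 4 RRBS tiles of Zmiz1 averaged 60.4% and 61.1% after injection at 1 day against 0.784%, 0.676% and 1.81% in controls, and 30.1% and 32.9% after injection at 3 weeks against 0.495%, 0.521% and 0.371%. The 6 of Fndc3b averaged 70.4% and 67.1% against 12.7%, 10.2% and 8.22%, and 38.9% and 31.5% against 13.3%, 12.0% and 14%. At both genes the DKO mice injected at 3 weeks lay between the others. The 2 of Gpd1 were not lower after the later injection, with 49.0% and 50.0% against 1.75%, 4.03% and 0.820% at 1 day and 68.6% and 47.3% against 3.70%, 1.92% and 10.0% at 3 weeks. The 3 of Trf were at 66.4% and 64.4% against 3.50%, 10.4% and 5.56%, and at 69.4% and 47.4% against 19.1%, 4.15% and 8.88%. At the 2 of Fgfr2 the controls were already at 51.8% to 63.6% and DKO at 91.6% to 94.0%.

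The genes of the lists held unequal numbers of tiles. Of 20 liver transcription factors 15 held a tile, 89 in all (2.70% of their measured tiles, against 0.249% of all), led by Prox1 with 17, Nr5a2 with 16 and Hnf4a with 14. Hepatocyte markers held 35 (2.73%), in 7 of 10 genes. Genes of glucose and lipid metabolism held 110 (1.55%), in 22 of 24, led by Fto with 20. Genes of the actin cytoskeleton and cell contacts held 39 (1.16%), in 12 of 15, and enzymes that write or erase DNA methylation 24 (1.00%), in 8 of 11, of which Dnmt3a, a de novo methyltransferase, held 14. Cytochromes P450 of the liver held 14 (0.648%), fetal liver genes 9 (0.646%), imprinted genes 13 (0.367%) and developmental transcription factors 20 (0.362%). The 0.249% of all tiles includes those between genes, whereas in gene bodies 14021 of 3542860 measured tiles belonged to the class. The shares of imprinted genes and of developmental transcription factors were below that of gene bodies. Markers of endothelium held 8 of 1564 measured tiles (0.512%) and those of stellate cells 2 of 2098 (0.0953%). Markers of Kupffer cells, cholangiocytes, leukocytes and erythroid cells held 0 of 88 to 522 measured tiles each, too few to set 0 apart from the 0.249% of all tiles.

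Expression was fitted by limma on log2(FPKM + 1) with all groups in 1 fit, for 11166 genes with a group mean of at least 1 FPKM, of which 9971 could be matched to an annotated gene and 4464 held at least 1 DKO-only methylated tile. In hepatocytes a lower value can mean fewer cells that express a gene or less RNA per cell, and these cannot be told apart. After injection at 1 day, 180 genes with a tile were higher in DKO (4.03%) and 800 lower (17.9%) at an adjusted p under 0.05, against 4.33% higher and 15.6% lower among all genes tested. Of the 5507 genes without a tile, 241 were higher and 816 lower. The shares of genes with a tile were near those of all genes in both directions. After injection at 3 weeks, 22 genes with a tile were higher (0.493%) and 305 lower (6.83%), against 0.905% and 4.34% of all genes tested, while 56 and 149 of the genes without a tile were called. When each library was centred on its median the split changed to 529 higher and 630 lower at 1 day, of 1448 and 1323 among all genes, and to 215 and 267 at 3 weeks, of 802 and 421. The counts at 3 weeks rest on few mice: without DKO replicate 2 they were 2 and 17, without DKO replicate 1 15 and 162, without control replicate 1 8 and 98, without control replicate 2 12 and 207, and without control replicate 3, the mouse with Xist, 17 and 192. At 1 day they were 73 and 349 without control replicate 3 and 90 and 371 without DKO replicate 1. The counts without 1 mouse are given without the share of all genes in the same fit. They do not set genes with a tile apart from all genes.

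The median difference was more negative in genes with more tiles at both times. At 3 weeks it came from 2 DKO mice, and at 1 day the trend rested on 1 mouse. At 1 day the median was -0.106 over all genes, -0.0956 without a tile, -0.139 with at least 1, -0.177 with at least 5 and -0.206 with at least 10. Without DKO replicate 2 these medians were -0.115, -0.121, -0.125, -0.124 and -0.130. At 3 weeks it was -0.0715, -0.0152, -0.166, -0.306 and -0.417. Centring moved the median of all genes by 0.139 at 1 day and by 0.148 at 3 weeks. Relative to the median of all genes, genes with at least 10 tiles were at -0.10 at 1 day and at -0.35 at 3 weeks under both scalings. Of the 194 genes with at least 10 tiles, 5 were higher and 39 lower (20.1%, against 15.6% of all genes) at 1 day, and 1 and 32 (16.5%, against 4.34%) at 3 weeks. After centring they were 15 and 27 at 1 day and 2 and 33 at 3 weeks. Of all 11166 genes, centring gave 1448 higher and 1323 lower at 1 day and 802 and 421 at 3 weeks. At 1 day 16 were lower without control replicate 3, 19 without DKO replicate 1 and 26 without DKO replicate 2, and at 3 weeks 0 without DKO replicate 2, 7 without control replicate 1, 17 without DKO replicate 1 and 18 without control replicate 3. With only the 2 groups fitted 3 were lower at 3 weeks, and without a filter on low values 24 at 1 day and 11 at 3 weeks. For the fits without 1 mouse, with 2 groups or without a filter, no share of all genes is given beside these counts. Genes with more tiles were longer, with medians of 13.1 kb without a tile, 41.7 kb with at least 1 and 180.5 kb with at least 10. Within genes of 100 kb or more, the median at 3 weeks was -0.154 without and -0.293 with a tile, and at 1 day -0.0790 and -0.124. Between 25 and 50 kb the medians at 3 weeks were -0.142 and -0.141, and at 1 day -0.0646 and -0.1175. Between 10 and 25 kb they were -0.0332 and -0.0497 at 3 weeks, and -0.0950 and -0.192 at 1 day. Under 10 kb they were 0.0894 and 0.0341 at 3 weeks, and -0.131 and -0.206 at 1 day. Between 50 and 100 kb they were -0.193 and -0.246 at 3 weeks, and -0.0430 and -0.109 at 1 day. The part of gene length in these medians was not tested further. That of postnatal tiles in the same genes was not tested. Against uninjected 15 week WT, which share no mouse with the controls, genes with at least 10 tiles had a median of -0.440 in DKO mice injected at 3 weeks and -0.232 in those injected at 1 day, and of -0.0148 and -0.0534 in the controls.

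Among the genes with the most tiles, Zmiz1 was at 2.88 and 2.99 FPKM in DKO mice injected at 3 weeks and at 8.82, 7.34 and 6.22 in their controls (log2 difference of -1.09 ± 0.23 SE, adjusted p = 0.0198). After injection at 1 day it was at 5.23, 6.76 and 9.28 against 5.14, 6.59 and 4.68 (0.30 ± 0.21, adjusted p = 0.323). Fndc3b was at 2.71 and 2.72 against 6.18, 5.52 and 4.06 at 3 weeks (-0.73 ± 0.17, adjusted p = 0.0252) and overlapped between groups at 1 day. The groups of both genes did not overlap at 3 weeks, but the calls were lost without either DKO mouse. Lrp1 was at 61.3 and 43.9 FPKM against 90.5, 88.8 and 111 at 3 weeks (-0.88 ± 0.24, adjusted p = 0.0525) and at 66.4 to 123 against 72.9 to 104 at 1 day. Fgfr2, a receptor for fibroblast growth factors, was at 14.1 to 17.2 against 8.47 to 9.91 at 1 day (0.69 ± 0.20, adjusted p = 0.0256), a call lost without 4 of the 6 mice in turn. Ptprg, Msi2, Prkag2, Mob3b and Rere passed the threshold at neither time, with log2 differences between -0.40 and 0.08.

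Of the genes with the highest share of tiles, Gpd1 fell to 63.1 to 77.97 FPKM from 121 to 142 after injection at 1 day (-0.97 ± 0.21, adjusted p = 0.00683), with no overlap, and was at 98.4 and 122 against 88.8 to 146 at 3 weeks. Midn fell by 0.74 ± 0.20 (adjusted p = 0.0230) and Rabggtb by 0.37 ± 0.12 (adjusted p = 0.0419) at 1 day, calls that were lost under 5 and 8 of 10 other fits. Ttr, at 3171 to 4059 FPKM in controls and 3388 to 4884 in DKO at 1 day, did not pass (0.16 ± 0.21, adjusted p = 0.642). Alb is listed at 0 FPKM in each library used here, as can happen when an estimate fails, and gives no value. Trf is listed at 0 in some libraries of young mice, and its SE was 2.48. It was at 7565 to 9399 FPKM in DKO and 8810 to 10440 in controls at 1 day. Gt(ROSA)26Sor, Samm50 and Onecut2 passed at neither time.

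The genes with a tile that changed most after injection at 1 day mostly held 1 or 2 of them. The 10 that fell most were led by Cyp2c29, a cytochrome P450, which was at 25.3, 30.3 and 15.4 FPKM in DKO and at 761, 469 and 647 in controls (-4.69 ± 0.24, adjusted p = 3.75e-08). Cyp2a5, another P450, was at 9.58, 14.2 and 6.87 against 209, 144 and 315 (-4.30 ± 0.34). Oat, ornithine aminotransferase, was at 11.1, 13.7 and 14.9 against 264, 126 and 288 (-3.91 ± 0.42), and Glul, glutamine synthetase, at 9.76, 11.8 and 11.6 against 186, 76.7 and 184 (-3.53 ± 0.57). Nr1i3, which encodes the xenobiotic receptor CAR, was at 2.01, 1.74 and 2.04 against 33.0, 30.8 and 31.3 (-3.48 ± 0.35, adjusted p = 1.96e-05). Ccbl2, which encodes a kynurenine aminotransferase and held 6 tiles, was at 3.43, 3.51 and 5.53 against 41.7, 44.0 and 66.2 (-3.32 ± 0.20, adjusted p = 1.73e-07). Cyp2c50 (-4.29), Lhpp (-3.43), Ugt1a5 (-3.39) and Cyp2a4 (-3.05) completed the 10. Changes of this size were also found in cytochromes P450 without a tile, with Cyp2c37 at -4.88, Cyp2e1 at -3.74 and Cyp4a14 at 4.71. Others without a tile did not pass, such as Cyp2j5 (-0.17) and Cyp3a11 (-0.36). Reads of Cyp2a4 and Cyp2a5, of Cyp2c29 and Cyp2c50 and of the Ugt1a genes, which share exons, may have been split between near copies, so that their single values are uncertain.

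Among the 10 that rose most, Gsn, which encodes the actin-severing protein gelsolin, was at 6.98, 9.80 and 9.35 FPKM in DKO and in controls at 0.116, 0.160 and 0.206 (3.05 ± 0.27, adjusted p = 6.86e-06). Lpl, lipoprotein lipase, was at 22.1, 23.4 and 20.4 against 2.30, 1.61 and 3.72 (2.738 ± 0.306), and Fst, which encodes the activin-binding protein follistatin, at 15.2, 16.2 and 15.6 against 2.73, 2.28 and 1.49 (2.42 ± 0.29). Col27a1, a fibrillar collagen gene with 6 tiles, was at 19.9, 22.3 and 21.0 against 4.68, 8.28 and 4.14 (1.77 ± 0.37, adjusted p = 0.00633). Cyp4a31 (2.91), Cyp4a10 (2.57), Cyp3a59 (2.19), Adrbk2 (1.87) and Qpct (1.72) also rose, where Cyp4a10 and Cyp4a31 are near copies of each other and Cyp3a59 of Cyp3a25. No library of 1 group overlapped with the other in these 20 genes, as the choice of the genes required. In the other fits 19 of the 20 kept their call, and Cyp4a10 lost it in 3 of 10.

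At 3 weeks several of the same 20 genes also passed the threshold. Cyp2a5 was at 58.9 and 70.6 FPKM against 210, 234 and 423.2 (-2.08 ± 0.38, adjusted p = 0.00985), Gsn at 2.69 and 3.35 against 0.210, 0.216 and 0.224 (1.72 ± 0.30, adjusted p = 0.00770) and Cyp3a59 at 268 and 208 against 92.7, 67.5 and 86.2 (1.53 ± 0.23, adjusted p = 0.00323). Cyp2c29 was at 372 and 367 against 771, 863 and 689 (-1.06 ± 0.27, adjusted p = 0.0394). Oat (-1.98), Glul (-2.46), Ugt1a5 (-1.90) and Cyp2a4 (-2.42) fell as well. In each of these 4 and in Cyp2a5 the mouse with Xist was the highest control, while in Cyp2c29 it was the lowest. It was also the highest control for Lrp1, Irs1 and Dnmt3a and the lowest for Zmiz1 and Fndc3b. Of 23 named genes called at 3 weeks, only Cyp3a59 kept the call without DKO replicate 2, and only Gsn when the 2 groups were fitted alone.

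**Figure D5:**
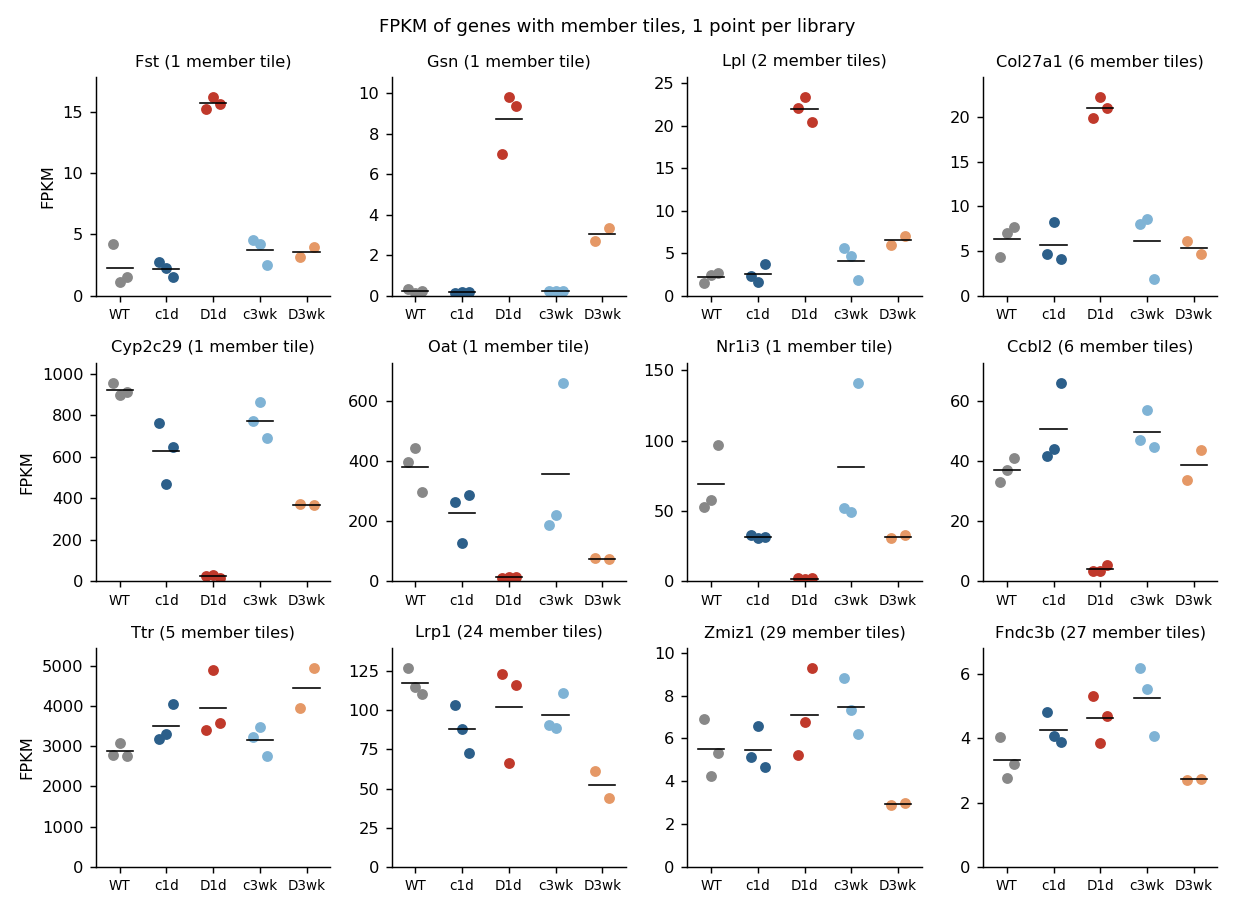
FPKM (linear axis from 0, set for each gene) of 12 genes with their number of DKO-only methylated tiles (member tiles) in 15 week WT mice without injection (WT), controls (c) and DKO mice (D) injected at 1 day (1d) or 3 weeks (3wk); each point is 1 mouse and black lines are group means. Cyp2c29 lies at 469 to 761 in controls and 15.4 to 30.3 in DKO mice injected at 1 day, and at 689 to 863 and 367 to 372 after injection at 3 weeks.

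In the lists, 7 of 20 liver transcription factors fell and 0 rose after injection at 1 day (median -0.286 against -0.106 for all genes), 5 of them among the 15 with a tile, where 4.33% of all genes tested were higher and 15.6% lower. At 3 weeks 3 of the 20 fell, against 4.34% of all genes. Nr5a2, which encodes the nuclear receptor LRH-1, was at 6.14, 6.03 and 7.52 FPKM against 11.7, 10.9 and 11.5 (-0.72 ± 0.16, adjusted p = 0.00926), and Hnf4a at 63.9, 76.2 and 106 against 112, 127 and 140 (-0.64 ± 0.20, adjusted p = 0.0362). Neither overlapped, and the call of Hnf4a was lost in 6 of 10 other fits. Nr1h3 (-0.44) and Nr1i3 also held a tile. Of 22 cytochromes P450, 5 rose and 8 fell at 1 day, above the shares of all genes in both directions, and 3 and 3 of these were among the 11 with a tile. Cyp39a1, which acts in bile acid synthesis, was at 21.7, 24.7 and 21.3 against 7.21, 8.28 and 6.82 (1.48 ± 0.19, adjusted p = 0.000179). Of the 16 genes of the actin cytoskeleton and cell contacts 3 rose and 0 fell at 1 day, whereas at 3 weeks Gsn rose and 3 fell, namely Myh9 (-0.71), Tln1 (-0.60) and Tjp1 (-0.72). Those that rose at 1 day were Gsn, Cdh1 and Cldn1, the latter at 47.5 to 53.3 against 24.7 to 30.0. Cdh1, which encodes E-cadherin and held 9 tiles, was at 75.0, 65.9 and 61.3 against 33.0, 30.7 and 25.6 (1.154 ± 0.225, adjusted p = 0.00399).

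Of 24 genes of glucose and lipid metabolism 2 rose and 4 fell at 1 day (median 0.131), near the shares of all genes, and 22 of the 24 held a tile. Fto was at 4.07, 4.45 and 5.46 FPKM in DKO against 7.13, 6.27 and 8.32 (-0.54 ± 0.12, adjusted p = 0.00784). Irs1, a docking protein of the insulin receptor with 8 tiles, passed at 3 weeks and not at 1 day, with 1.81 and 1.39 against 6.03, 4.32 and 6.78 FPKM at 3 weeks (-1.36 ± 0.24, adjusted p = 0.00790), and the difference between the times did not pass (adjusted p = 0.0658). Of the enzymes of DNA methylation, Dnmt3a was at 1.14 and 0.978 against 2.32, 2.55 and 3.01 at 3 weeks (-0.81 ± 0.13, adjusted p = 0.00406) and at 0.991 to 1.25 against 1.60 to 1.98 at 1 day (-0.37 ± 0.11, adjusted p = 0.0366), where the call at 1 day was lost in 9 of 10 other fits and the groups did not overlap. Developmental transcription factors had 4 genes tested, of which Meis1 rose and Gata6 fell. Of 18 imprinted genes tested 2 rose and 1 fell and of 9 fetal liver genes 1 rose, none of them with a tile. Among the markers of other cells, the 3 listed erythroid ones (1 of them at 0) summed to 52.0 to 70.5 FPKM in controls injected at 1 day and to 11.4 to 14.4 in DKO, those of Kupffer cells to 4.58 to 7.51 and 1.84 to 3.67, and those of cholangiocytes to 12.9 to 21.2 and 8.66 to 13.1. At 3 weeks those of endothelium summed to 3.81 to 10.2 in controls and 10.9 to 22.8 in DKO. The part of these cells in the results was not tested.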

How the data were processed

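The submitters' processing notes and the methods of the study name Trim Galore 0.3.3, cutadapt 1.15, BSMAP 2.74, Bowtie2 2.2.4 and HOMER, with build mm9. The authors deposited WGBS and RRBS methylation as a fraction of methylated CpG readings per tile of 200 bp or 100 bp, the latter with a minimum coverage of 10 CpGs, without coverage columns. The deposited peak files hold a normalized tag count (signal) and a score from HOMER findPeaks, called by the authors per library. The deposited expression table holds FPKM, computed by the authors per gene. Libraries were linked to labels by group and animal number, and 49 columns of values per sample were not used. Of the 131 samples of the series, 1 had no group.

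Tiles were chosen at 35 points above both WT libraries. The members, lists and tests were chosen with earlier results of these data known. Tiles overlapped a peak with at least 1 bp. Mouse means by RRBS went into an exact permutation test, two-sided, and RRBS tiles and log2(FPKM + 1), for genes with a group mean of at least 1 FPKM, by limma 3.58.1 (R 4.3.3) with Benjamini-Hochberg adjustment. The limma step was tested on simulated data. Nothing says that the mice of a group came from separate litters, and p-values measure the spread between these samples. Intervals are Wilson intervals at 95% and cover counting error only. Other steps used Python 3.11.15, numpy 2.4.6, pandas 2.3.3, scipy 1.17.1 and matplotlib 3.10.9. Genes named are the 10 with most tiles, the 10 with the highest share among those with at least 5 tiles, those of the 5 longest runs, the 10 with the largest change in each direction after injection at 1 day that passed the threshold without overlap of libraries, members of the lists with a tile that passed, and Tet1, Tet2 and Tet3. Some genes and letters that these rules name are not reported here. Alternatives changed the limit of 35 points, the gene annotation, the overlap and score of peaks, the pseudocount, the filter, the scaling and the groups fitted, and left out each mouse in turn.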

Additional observations from a re-analysis of the deposited data

Results flagged for a closer look

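The effect of the deletion on RRBS methylation of the DKO-only methylated tiles differed between injection at 1 day and at 3 weeks, by 22.1 points (exact permutation p = 0.0167, the smallest that 120 splits allow). At the postnatal tiles the effect was 58.3 points at 1 day and 35.6 at 3 weeks, so that a smaller effect of the later injection was not particular to the DKO-only methylated tiles. These were chosen with a DKO library injected at 1 day, and the part of this choice in the difference was not tested.

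In the limma fit the log2 difference between DKO and controls itself differed between the injection times (1 day minus 3 weeks) for 13 of the genes reported here. Among all 11166 genes tested this difference between the times was positive in 2.33% and negative in 3.04% at an adjusted p under 0.05. For genes that fell more after injection at 1 day it was -3.63 for Cyp2c29 (adjusted p = 0.000153), -2.96 for Ccbl2 (0.000153), -3.26 for Cyp2c50 (0.00113), -2.33 for Nr1i3 (0.0351) and -2.22 for Cyp2a5 (0.0372). For genes that rose at 1 day it was 2.45 for Fst (adjusted p = 0.0179), 1.48 for Adrbk2 (0.0223), 2.08 for Lpl (0.0348) and 1.42 for Tet2 (0.0337). For genes that fell at 3 weeks and did not pass at 1 day it was 1.40 for Zmiz1 (adjusted p = 0.0354), 0.86 for Myh9 (0.0405), 2.55 for Irs2 (0.0430) and 0.83 for Fndc3b (0.0481). The groups used for injection at 3 weeks hold 2 DKO mice and 1 control with Xist, and the part of this in the differences was not tested. Cyp2c29, Ccbl2, Cyp2c50, Nr1i3, Cyp2a5, Fst, Adrbk2 and Lpl were named for their large change at 1 day. The choice of these genes therefore favoured a larger effect at that time.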

How the results depend on the processing

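With a limit of 25, 50 or 35 points and both WT libraries under 20%, the tiles numbered 54912, 4452 and 8600. The share with an adjacent tile was 19.0% at 25 and 5.66% at 50 points, and 22.8% had another within 1 kb. With protein-coding genes alone, promoters held 4.28%, gene bodies 68.2% and 27.5% lay between genes; at 50 points gene bodies held 73.9%, 20.8% lay between genes and tiles had 1.81 CpG. With an overlap of at least 100 bp, H3K27ac held 36.5% in WT and 36.0% in DKO, H3K4me1 66.6% and 63.3% and 5hmC 12.2%; with the 50% of peaks of highest score 25.4%, 25.2%, 42.9%, 41.3% and 6.55%; at 50 points H3K27ac held 39.9% in DKO and H3K4me1 74.4% and 69.0%. The RRBS differences stayed between 40.6 and 60.5 points at 1 day and between 22.3 and 33.1 at 3 weeks.

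Genes with a tile called higher and lower numbered 81 and 357 at 1 day and 4 and 165 at 3 weeks with the tiles of 50 points. Centring gave 529 higher at 1 day and 215 at 3 weeks, of 1448 and 802 among all genes. At 3 weeks they were 13 and 127 without a filter and 1 and 24 with only the 2 groups fitted. Leaving out 1 mouse gave 73 to 160 higher and 349 to 785 lower at 1 day, and 2 to 17 higher and 17 to 207 lower at 3 weeks. The cause of these changes was not tested, apart from the smaller number of tiles or mice. Apart from centring, the counts here are given without the share of all genes. For the named genes, 1048 of 1234 values under other settings kept direction and side of the threshold, 180 fell below it, 6 rose above it and 0 changed sign.

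With the replicate block for the numbered ATAC and HNF6 libraries, the differences (WT minus DKO) were 1.77 points (exact p = 0.5) and -1.87 points (exact p = 0.5), where 0.5 is the smallest p, so that the block decides nothing. Leaving out 1 library moved them from 0.256 to 3.28 and from -3.73 to -0.0149. No paired analysis was possible because the RRBS and FPKM columns carry no replicate numbers shared between groups. Depth is unknown for WGBS and RRBS, and each WGBS and histone library is single.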
